A study of Mus musculus with 8 samples.

Results

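The amino acid transporters examined here are the protein-coding genes of 7 solute carrier families: Slc1a, Slc3a, Slc6a, Slc7a, Slc36a, Slc38a and Slc43a. They were chosen by their symbols in the GENCODE M21 annotation, and 63 of the 21859 genes in the count table belong to them. The letters of the rule also match Slc7a6os, a neighbour of Slc7a6 that encodes no carrier, and it was left out of every count of transporters. The 8 samples are of the mouse leukaemia line PER-M60, and the labels do not say whether each is its own culture. Control medium was used for 4 of them, and the other 4 received osteoclast-conditioned medium, which has been in contact with the cells that resorb bone. All 8 come from this 1 cell line. The labels do not give the strain or genotype, the culture time, the composition of either medium or how the conditioned medium was made. The comparison asks how RNA levels in the leukaemia cells differ between the media.

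Cells take up most amino acids through such carriers. Some use the sodium gradient to concentrate small neutral amino acids (many Slc38a and some Slc6a members). Others swap 1 amino acid for another across the membrane (many Slc7a members, Slc1a4 and Slc1a5). Other Slc1a members carry glutamate, and some carriers work on the lysosome. The light chains of the Slc7a family reach the cell surface only when joined to a heavy chain of the Slc3a family. Several of these genes are textbook targets of ATF4, the transcription factor that is translated more when amino acids run short, which acts through C/EBP-ATF response elements. In leukaemic B-lineage cells, uptake of arginine, glutamine, leucine and cystine is known to limit growth.

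Stretches of promoter sequence are shown to place the genes beside that known regulation. The core letters searched were TGATGNAA, on both strands, in windows of 300 bases (250 before and 50 after each RefSeq start, GRCm38.p6). Of 32851 windows in all, 1304 (3.97%) held the core, and 294 (0.895%) held its form TGATGCAA, which is contained in the first search. Of the 63 transporters, 45 had 1 or more of 66 windows, and 4 of these 45 held the core: Slc1a4, Slc6a21, Slc7a7 and Slc7a11. Counted by window, as for all windows, 5 of the 66 held the core and 4 held TGATGCAA. Windows of 1 gene can overlap, as those of Slc7a7 do, so a site can be counted more than once. Each line gives 5′ to 3′ sequence on the gene's strand, with the core or its reverse complement in capitals. Slc1a4 is shown because it rose, Slc7a7 because it was not called, and Slc7a11 because it was listed at 0. Slc3a2 is shown because it rose and its window lacks these letters.
Slc7a11 (chr3:50443644-50443693, minus strand, upstream of the start): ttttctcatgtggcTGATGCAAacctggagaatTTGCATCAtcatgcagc
Slc1a4 (chr11:20332705-20332734, minus strand, across the start): ccagcgtgcctcctgcgTTGCATCAtctcc
Slc7a7 (chr14:54417929-54417958, minus strand, across the start): gggacctagaagcTGATGCAAcagcttccc
Slc3a2 (chr19:8713898-8713947, minus strand, upstream of the RefSeq start, which lies inside the longer GENCODE gene): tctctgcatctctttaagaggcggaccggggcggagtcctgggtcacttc
The Slc7a11 cores begin 66 and 47 bases before the start, on opposite strands, and the Slc1a4 core begins 4 bases before its start. The Slc7a7 core shown begins 1 base before 1 RefSeq start and 243 bases before another. A further Slc7a7 core begins 141 bases before the first of these starts. The Slc7a7 stretch shown lies upstream of the GENCODE gene, which reaches to 54417780. Of the 8 called transporters that had a window, only Slc1a4 held the core. A match is a description of letters, and windows of this length leave out introns and more distant sequence.

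Total counts ran from 15391754 to 21637966 per sample, and 3 counts, taken as the detection floor, corresponded to between 0.138 and 0.194 CPM, the unit of relative abundance used below, which corrects for sequencing depth with TMM factors. All 8 B-lineage markers examined, such as Cd79a, Pax5 and Vpreb1, were well above the floor, with a summed level of 4253 to 4279 CPM in control medium and 4501 to 4538 in conditioned medium; 5 of the 8 were called higher. Of 8 osteoclast markers 6 had any count, Dcstamp and Ocstamp were at 0, and the sum was 21.8 to 25.2 CPM in control and 23.5 to 26.9 in conditioned medium, nearly all of it Acp5. Of 6 macrophage markers 5 had counts. Itgam was at 0, but 68.7% of its exon bases are shared with Gm49368, also at 0, so this 0 is uncertain. The macrophage sum ran from 6.38 to 7.38 and from 7.52 to 9.34 CPM, with Lyz2 called higher. Of 5 stromal or osteoblast markers 4 had any count, of which Col1a1 and Sp7 had 1 count each over all samples, and Col1a2 was at 0 (278.9 to 285 and 293 to 305 CPM, nearly all Alpl, called higher), and of 3 T cell markers Cd3e and Cd3d had 2 and 10 counts over all samples and Cd3g was at 0 (at most 0.153 CPM). The part of other cells in the results was not tested. RNA from bulk samples cannot tell a change in every cell from a change in the share of cells that use a gene.

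Of the 63 transporters, 26 passed the filter on low counts and were tested, and 37 did not. The tested ones are those expressed in at least 1 of the media and do not stand for the families as a whole. With edgeR's quasi-likelihood test and Benjamini-Hochberg adjustment over all 10729 tested genes, 12 of the 26 (46.2%) had an adjusted p under 0.05, where 30.5% of all tested genes did. Of the 12, 10 were higher in osteoclast-conditioned medium (38.5% of the tested transporters, against 15.7% of all tested genes) and 2 were lower (7.69%, against 14.8%). With scaling by total counts only, the transporters again gave 10 higher and 2 lower, while 12.9% of all tested genes were called higher and 18.8% lower. A call together with a change of at least 1.2-fold was made for 8 of the 26, against 8.53% of all tested genes. The median log2 fold change was 0.05 over the tested transporters, with 17 of 26 positive, and -0.01 over all tested genes. The transporters' median was 0.14 over the 20 with a mean of at least 50 counts and -0.0048 over the 45 with any count. Among called genes the median absolute log2 fold change was 0.45 for transporters and 0.19 for all.

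By family, both heavy chain genes (Slc3a) were called higher, as were 4 of the 7 tested Slc38a genes, 2 of 4 Slc7a genes and 1 of 2 Slc1a genes. In Slc6a, 1 of 5 tested genes was called higher and 1 lower, and in Slc43a 1 of 3 was called lower. In Slc36a, edgeR called 0 of 3, with 0 at an unadjusted p under 0.05, and DESeq2 and limma-voom also called 0. Median log2 fold changes of the tested members were 0.48 in Slc3a, 0.33 in Slc1a, 0.29 in Slc7a, 0.16 in Slc38a, 0.01 in Slc36a, -0.01 in Slc6a and -0.10 in Slc43a. These medians rest on 2 to 7 genes each and move with the filter, since it sets which genes enter. With a mean of at least 50 counts required, the Slc6a median was 0.45 and the Slc38a median 0.26. Without a filter, the Slc1a median was 0.015 and the Slc7a median 0.032. Differences between families were not tested.

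**Figure D1:**
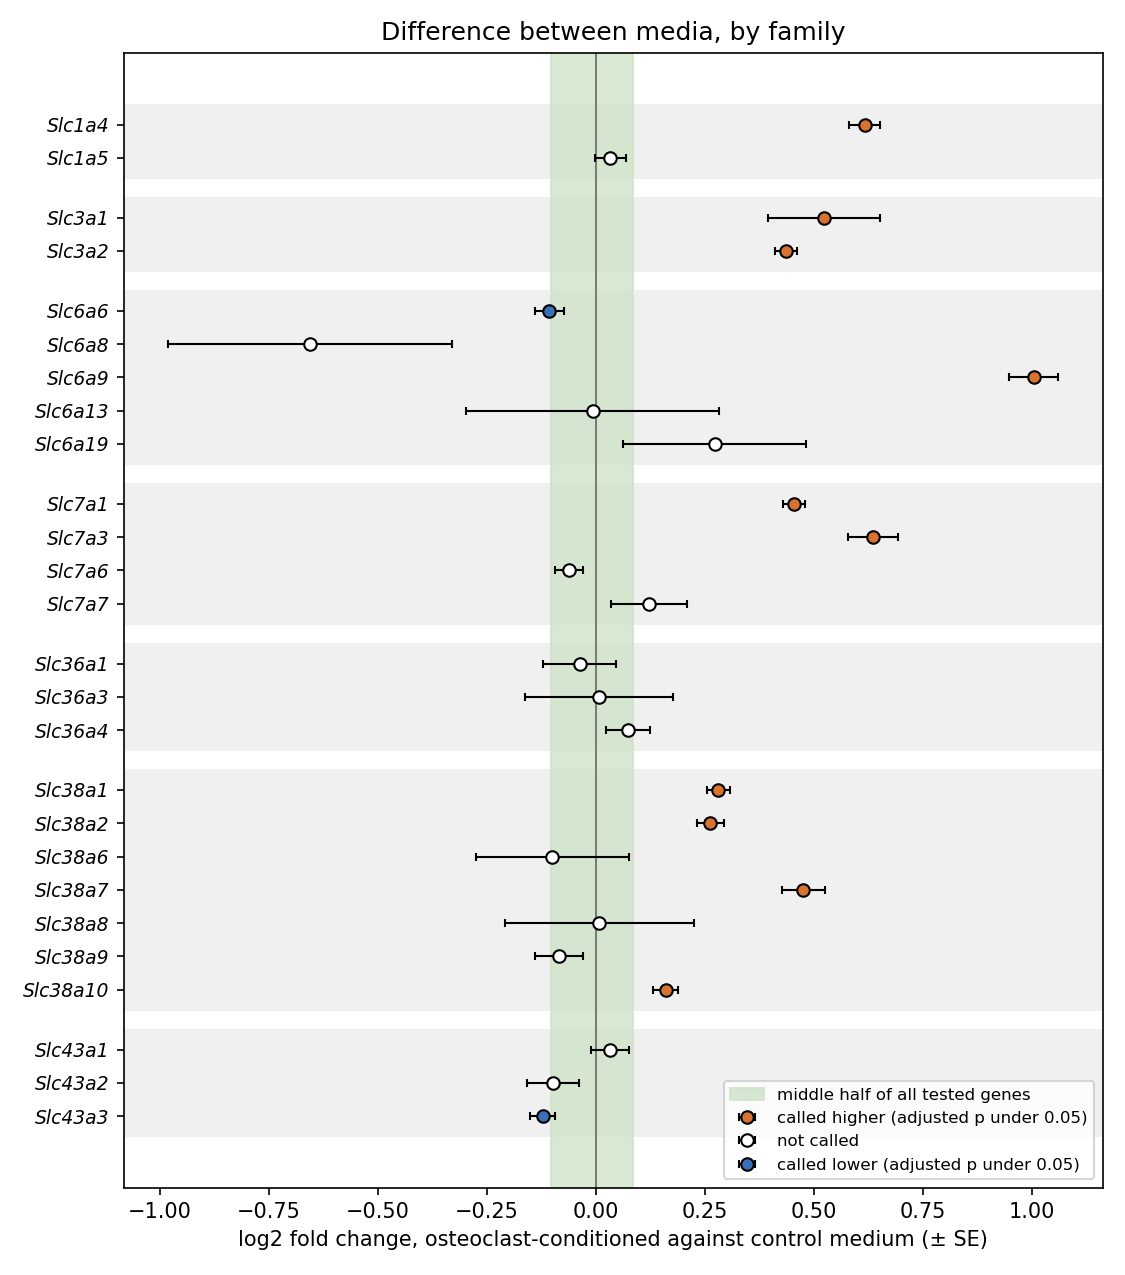
Log2 fold change of each of the 26 tested transporters (horizontal axis, osteoclast-conditioned against control medium, bars ± SE), grouped by family on the vertical axis; orange points were called higher, blue points lower, open points not called, and the green band runs from the lower to the upper quartile of all tested genes (labelled as the middle of them). All 10 orange points lie to the right of the band, from Slc38a10 at 0.16 to Slc6a9 at 1.00, and both blue points lie just left of its edge at -0.10.

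The heavy chains come first, because the light chains depend on them. Slc3a2 (ENSMUSG00000010095; chromosome 19, 8706882 to 8723369 in GRCm38), the CD98 heavy chain that carries most light chains to the surface, had 285, 290.0, 292 and 280.1 CPM in control replicates 1 to 4 and 397, 383, 391 and 380.5 CPM in conditioned replicates 1 to 4. Every conditioned sample lay above every control sample, and the spread within a medium was small beside the gap. The means were 287 ± 5.42 and 388 ± 7.33 CPM (SD, n = 4 each), with a log2 change of 0.44 ± 0.03 (SE, adjusted p = 1.09e-13 by edgeR). Samples of the media did not overlap in 12 of the 26 tested transporters, against 28.2% of all tested genes.

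Slc3a1 (ENSMUSG00000024131; chromosome 17, 85028376 to 85064236), the heavy chain of the kidney cystine carrier, was expressed far more weakly. Its level was 2.96, 3.00, 2.85 and 3.16 CPM in control medium and 4.48, 3.89, 4.67 and 4.14 CPM in conditioned medium. The groups again did not overlap, and the log2 fold change was 0.52 ± 0.13 (SE, adjusted p = 0.00228 by edgeR). The value rests on 526 counts in all, and 26.5% of its exon bases are shared with Prepl on the opposite strand, which had 4035 counts and a log2 fold change of 0.05 (SE 0.05). Whether the counting used strand is not given in the sources used here, so the fold change of Slc3a1 is uncertain. Its known light chains Slc7a9 and Slc7a13 had 1 count and 0 counts in the 8 samples together.

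Of the 4 tested Slc7a genes, Slc7a1 and Slc7a3 were called higher, and both carry cationic amino acids without a heavy chain. Slc7a1 (ENSMUSG00000041313; chromosome 5, 148327410 to 148399904), the widely expressed carrier of arginine and lysine, had 503, 517, 503 and 509 CPM in control medium and 701, 698, 707 and 681 CPM in conditioned medium. It took the most counts of all 63 transporters, and its control samples lay far closer to each other than to any conditioned sample. The means were 508 ± 6.84 and 697 ± 11.1 CPM (SD, n = 4 each), with a log2 change of 0.45 ± 0.03 (SE, adjusted p = 1.63e-14 by edgeR). Slc7a3 (ENSMUSG00000031297; chromosome X, 101079210 to 101086020), a related cationic carrier best known from brain, had 22.8, 21.4, 19.2 and 22.9 CPM in control medium and 34.5, 33.6, 34.6 and 31.4 CPM in conditioned medium. Its lowest conditioned sample was well above its highest control sample. The log2 fold change was 0.64 ± 0.06 (SE, adjusted p = 6.63e-10 by edgeR). Slc7a2, the cationic carrier of macrophages and liver, was at 0 in all samples.

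The tested light chains that pair with Slc3a2 were not called. Slc7a6, which swaps cationic for neutral amino acids, had 123, 119, 115 and 117 CPM in control and 117, 115, 109 and 114 CPM in conditioned medium. Its ranges overlapped, and the log2 fold change was -0.06 ± 0.03 (SE, adjusted p = 0.156 by edgeR). Slc7a7, a second exchanger of that type, had 9.53, 10.1, 9.90 and 9.09 CPM against 12.1, 9.04, 10.3 and 10.4 CPM, also overlapping, with a log2 fold change of 0.12 (SE 0.09, adjusted p = 0.311). Of its exon bases, 7.00% are shared with Oxa1l on the opposite strand, which had 11036 counts in all against 1452 for Slc7a7, so the values of Slc7a7, its ratio included, are uncertain.

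A ratio of counts within each library does not depend on the scaling between libraries. The log2 ratio of Slc7a6 to Slc3a2 was -1.21, -1.28, -1.34 and -1.25 in control replicates 1 to 4 and -1.76, -1.74, -1.84 and -1.74 in conditioned replicates 1 to 4. The conditioned samples were all lower, and the means of -1.27 ± 0.0569 and -1.77 ± 0.0481 (SD, n = 4 each) differed by -0.50. For Slc7a7 to Slc3a2 the means were -4.89 ± 0.0397 and -5.22 ± 0.154, a difference of -0.33, again without overlap. Each had p = 0.0286 in an exact two-sided permutation test, the smallest that 4 against 4 samples allow, and 0.0286 after Benjamini-Hochberg adjustment over these 2 ratios. Both ratios have Slc3a2 as denominator, so the tests share its rise and are not independent of it or of each other. Raw counts of 2 genes also differ by length, so the level of a ratio says nothing about chain numbers; only its difference between media is compared.

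Other light chains of Slc3a2 were listed at 0 and could not be compared. Slc7a5, the leucine carrier and best known partner of Slc3a2, had 0 counts in all samples, but its whole span lies inside that of Gm20388 (chromosome 8, 119910841 to 124345722), a gene model on the opposite strand that collected 26860 counts. The annotated exons of Slc7a5 and Gm20388 share no bases. How reads there were assigned is not given in the sources used here, so the 0 of Slc7a5 is uncertain and is not read as absence of expression. Gm20388 itself had a log2 change of -0.14 ± 0.07 (SE, adjusted p = 0.197 by edgeR), which cannot be assigned to any gene inside it.

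Slc7a11 (ENSMUSG00000027737), the light chain that imports cystine in exchange for glutamate, was also listed at 0 in all 8 samples, with no other listed gene in its span. Across the 143955204 counts of all samples a count of 0 allows up to 0.0208 CPM, for counting error only. No difference between media could be measured for it, although its promoter window, printed above, holds the core letters on each strand. Several annotated genes that the table does not list, among them pseudogenes and an antisense RNA, lie in its span, and whether reads were withheld from Slc7a11 for that reason was not tested. Slc7a8 and Slc7a10, further partners of Slc3a2, were at 0 as well. For Slc7a10, Lrp3 on the opposite strand shares 17.9% of the exon bases and is at 0 too.

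**Figure D2:**
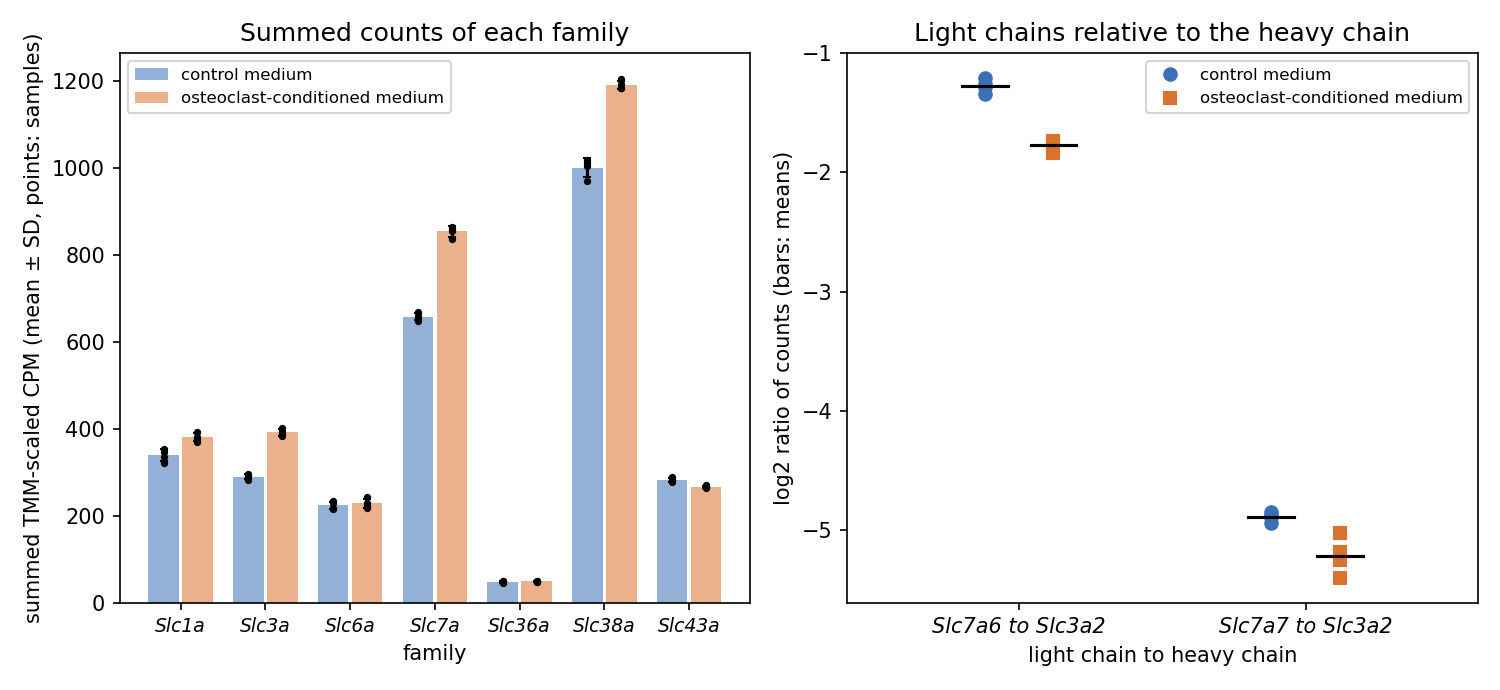
Left, summed TMM-scaled CPM of all members of each family, as bars (mean ± SD of 4 samples, from 0) with points for samples, in control (blue) and osteoclast-conditioned (orange) medium. Slc7a5 enters the Slc7a sum at its listed 0, which is uncertain. Right, log2 ratio of Slc7a6 and of Slc7a7 counts to Slc3a2 counts in each sample, with bars at the means; for both ratios the 4 conditioned samples lie below the 4 control samples.

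The sodium-coupled neutral carriers of the Slc38a family held the largest summed CPM, 1002 ± 21.9 in control and 1192 ± 9.30 in conditioned medium (SD, n = 4 each, 1.19-fold). That order of families is by counts not scaled by gene length, and the Slc7a sum holds no counts of Slc7a5, whose level is uncertain. Slc38a1 (ENSMUSG00000023169; chromosome 15, 96571418 to 96642913), a glutamine and alanine importer, had 412, 434, 416 and 423 CPM in control medium and 514, 514, 523 and 496 CPM in conditioned medium. Slc38a2 (ENSMUSG00000022462; chromosome 15, 96687392 to 96699730), its neighbour on the chromosome and a carrier induced by amino acid shortage in many cell types, had 380.3, 368, 339 and 373 CPM against 447, 426, 432 and 447 CPM. In both genes every conditioned sample was above every control sample. The log2 fold changes were 0.28 (SE 0.03, edgeR adjusted p = 1.50e-09) for Slc38a1 and 0.26 (SE 0.03, edgeR adjusted p = 1.44e-07) for Slc38a2.

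Slc38a7 (ENSMUSG00000036534; chromosome 8, 95835920 to 95853539), which releases glutamine and asparagine from lysosomes, changed more in proportion from a lower level. It had 24.7, 24.6, 24.9 and 26.3 CPM in control medium and 35.7, 35.1, 33.7 and 35.2 CPM in conditioned medium. The groups were far apart, with a log2 change of 0.48 ± 0.05 (SE, adjusted p = 1.02e-08 by edgeR). Slc38a10 (ENSMUSG00000061306; chromosome 11, 120103960 to 120151346), a carrier of glutamine and related amino acids, had 158, 163, 160.1 and 161 CPM against 182, 183, 175 and 177 CPM, without overlap. Its log2 fold change was 0.16 ± 0.03 (SE, adjusted p = 5.65e-05 by edgeR), the smallest of the 10 rises. Slc38a9, the arginine sensor that reports to mTORC1 on the lysosome, was not called by edgeR (log2 fold change -0.08, SE 0.05), nor were Slc38a6 (-0.10, SE 0.18) and Slc38a8 (0.01, SE 0.22). Slc38a11, below the filter, had 0 counts in every control sample and 4, 0, 2 and 2 in the conditioned ones, Slc38a3 had 1 count in all, and Slc38a4 and Slc38a5 were at 0.

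The Slc1a family divided. Slc1a4 (ENSMUSG00000020142; chromosome 11, 20302180 to 20332713), an exchanger of serine, alanine, threonine and cysteine, had 64.0, 68.8, 61.8 and 67.0 CPM in control medium and 102, 99.7, 102 and 98.5 CPM in conditioned medium. The conditioned samples lay close together, well above all controls. The log2 fold change was 0.62 ± 0.04 (SE, adjusted p = 7.20e-14 by edgeR). Slc1a5, the glutamine exchanger that shares several of those substrates, had 288, 253, 274 and 279 CPM against 267, 281, 277 and 293 CPM, with ranges that overlapped, a log2 fold change of 0.03 (SE 0.04) and an edgeR adjusted p of 0.512. Slc1a5 held 80.6% of the family's summed CPM in control medium, and the sum was 339 ± 13.4 against 381 ± 9.30 CPM (1.12-fold), without overlap between the media. The glutamate carriers Slc1a1, Slc1a2, Slc1a6 and Slc1a7 had at most 10 counts in any sample, and Slc1a3 had 0.

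Slc6a is the family of sodium- and chloride-coupled carriers that includes those for neurotransmitters. Slc6a9 (ENSMUSG00000028542; chromosome 4, 117834506 to 117875198), the glycine transporter, had 20.6, 17.3, 18.1 and 19.1 CPM in control medium and 37.1, 37.1, 36.7 and 39.5 CPM in conditioned medium. All conditioned samples were near 2.00 times the control mean, and this was the largest change among the transporters called. The means were 18.8 ± 1.42 and 37.6 ± 1.28 CPM (SD, n = 4 each), with a log2 change of 1.00 ± 0.06 (SE, adjusted p = 2.05e-14 by edgeR). Of the Slc6a9 exon bases 27.8% are shared with genes on the opposite strand, Ccdc24, which was at 0, and B4galt2, which had 807 counts in all against 4052 for Slc6a9. B4galt2 was called in the opposite direction, with a log2 change of -0.52 ± 0.11 (SE, adjusted p = 0.000494 by edgeR). Among tested transporters only Slc6a9, Slc3a1 and Slc7a7 share exon bases with another listed gene. How reads in the shared part were assigned is not given in the sources used here, so the size of the Slc6a9 change is uncertain.

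None of the other tested Slc6a genes was called higher. Slc6a6, the taurine transporter, had 209, 198, 194 and 206 CPM in control medium and 189, 176, 184 and 199 CPM in conditioned medium. Its highest conditioned sample lay above its 2 lowest controls. It was called lower, with a log2 change of -0.11 ± 0.03 (SE, adjusted p = 0.0162 by edgeR), but it was not called when control replicate 1 or 4 or conditioned replicate 2 or 3 was left out (adjusted p from 0.0586 to 0.105). Slc6a8, the creatine transporter, had 13, 15, 11 and 13 counts against 4, 8, 10 and 11 counts and a log2 fold change of -0.66 (SE 0.33, adjusted p = 0.131); all control samples lay above all conditioned ones in CPM, but at this depth the difference did not pass the test, and without conditioned replicate 1 the log2 fold change was -0.38. Slc6a13 and Slc6a19, carriers of GABA and of neutral amino acids, had log2 fold changes of -0.01 (SE 0.29) and 0.27 (SE 0.21), and neither was called. The remaining 16 Slc6a genes fell below the filter, 6 of them at 0 in every sample, including the dopamine and noradrenaline transporters Slc6a3 and Slc6a2. The summed level of the family was 224 ± 8.09 and 228 ± 10.6 CPM, and the groups overlapped.

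In the proton-coupled Slc36a family, Slc36a1, which exports small amino acids from lysosomes, had a log2 fold change of -0.04 (SE 0.08), Slc36a4 of 0.07 (SE 0.05) and Slc36a3 of 0.01 (SE 0.17). By edgeR their adjusted p came to 0.775, 0.290 and 0.983. Slc36a2 had at most 4 counts in a sample. The family's summed level was 47.3 ± 2.05 and 48.8 ± 1.29 CPM. With standard errors of that size, the difference for Slc36a4 was measured about as closely as that for Slc38a7, and the one for Slc36a3 much less closely.

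The Slc43a family holds sodium-independent carriers of large neutral amino acids, except for Slc43a3, which carries purine bases. Slc43a3 (ENSMUSG00000027074; chromosome 2, 84936579 to 84958509) had 186, 188, 194 and 190.3 CPM in control medium and 172, 174, 174 and 176 CPM in conditioned medium. The groups did not overlap, and it fell by 0.12 on the log2 scale (SE 0.03, edgeR adjusted p = 0.00103). The leucine and phenylalanine carriers Slc43a1 and Slc43a2 had log2 fold changes of 0.03 (SE 0.04, adjusted p = 0.620) and -0.10 (SE 0.06, adjusted p = 0.216) and were not called.

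**Figure D3:**
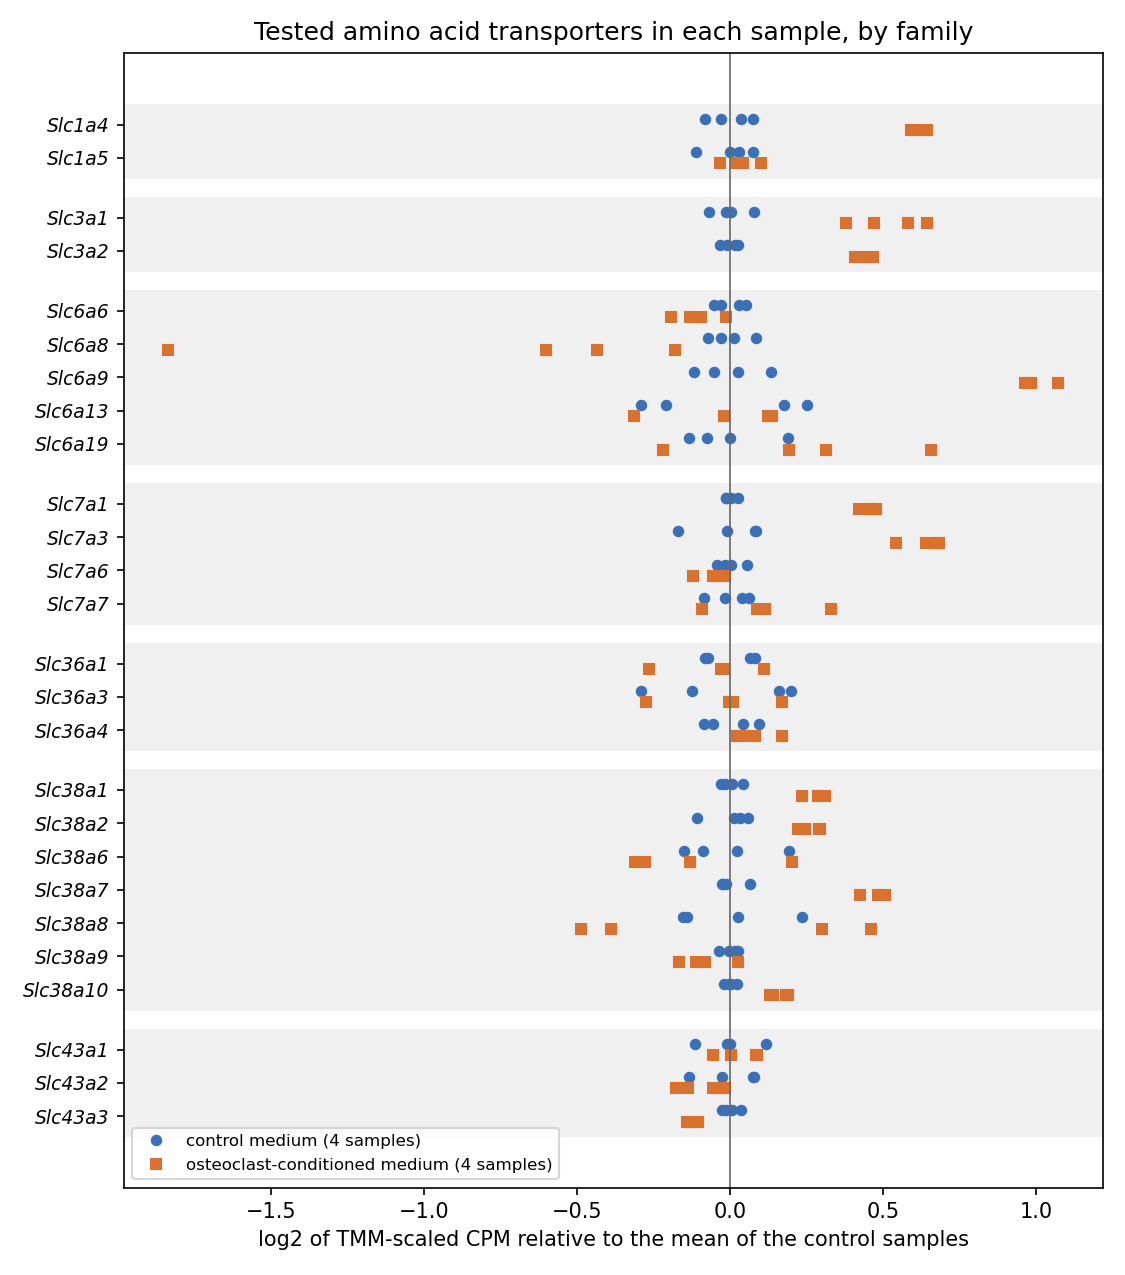
TMM-scaled CPM of each tested transporter in each sample, as log2 relative to the mean of the 4 control samples (horizontal axis), for control (blue circles) and osteoclast-conditioned (orange squares) samples. Squares stand clear to the right for Slc6a9, Slc7a3, Slc1a4, Slc3a1, Slc38a7, Slc7a1, Slc3a2, Slc38a1, Slc38a2 and Slc38a10, and the widest scatter is that of weakly expressed genes such as Slc6a8 and Slc38a8.

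Levels can be compared between genes only per length. As RPKM (TMM-scaled CPM per kilobase of annotated exon), the order in control medium was Slc3a2 at 81.3 ± 1.53, Slc1a5 at 65.5 ± 3.60, Slc7a1 at 44.1 ± 0.593, Slc43a3 at 42.5 ± 0.794 and Slc38a2 at 41.3 ± 2.05 (SD, n = 4 each). The last 2 differed by less than their spread. In conditioned medium Slc3a2 stood at 109.9 ± 2.08, Slc1a5 at 67.0 ± 2.58, Slc7a1 at 60.4 ± 0.961, Slc38a2 at 49.6 ± 1.23 and Slc43a3 at 39.0 ± 0.416. Slc6a9 and Slc7a3, with the largest rises, were at 3.66 ± 0.277 and 5.70 ± 0.457 RPKM in control medium and 7.32 ± 0.249 and 8.86 ± 0.398 in conditioned medium. Exon length here is the union of all annotated transcripts, which understates the level of genes with long exons that these cells do not use.

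Of the 16 tested transporters with a control mean of at least 20 CPM, 10 were called, where 37.4% of all tested genes at that level were. Of the 10 below it, 2 were called (Slc6a9 and Slc3a1), where 17.7% of all tested genes were. Of the 37 transporters below the filter, 19 had some counts, never more than 10 in a sample, and 18 (28.6% of the 63) were at 0 in all 8 samples, against 30.7% of all listed genes. The 18 include Slc7a5, whose 0 is uncertain, and the sums that follow hold no counts of it. Summed over all 7 families, transporter counts made up 2865, 2852, 2799 and 2855 CPM in control medium and 3383, 3346, 3372 and 3354 CPM in conditioned medium. The conditioned samples were all higher, with means of 2843 ± 29.4 and 3364 ± 16.8 CPM (SD, n = 4 each). Slc7a1 alone made up 17.9% of that sum in control and 20.7% in conditioned medium.

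**Figure D4:**
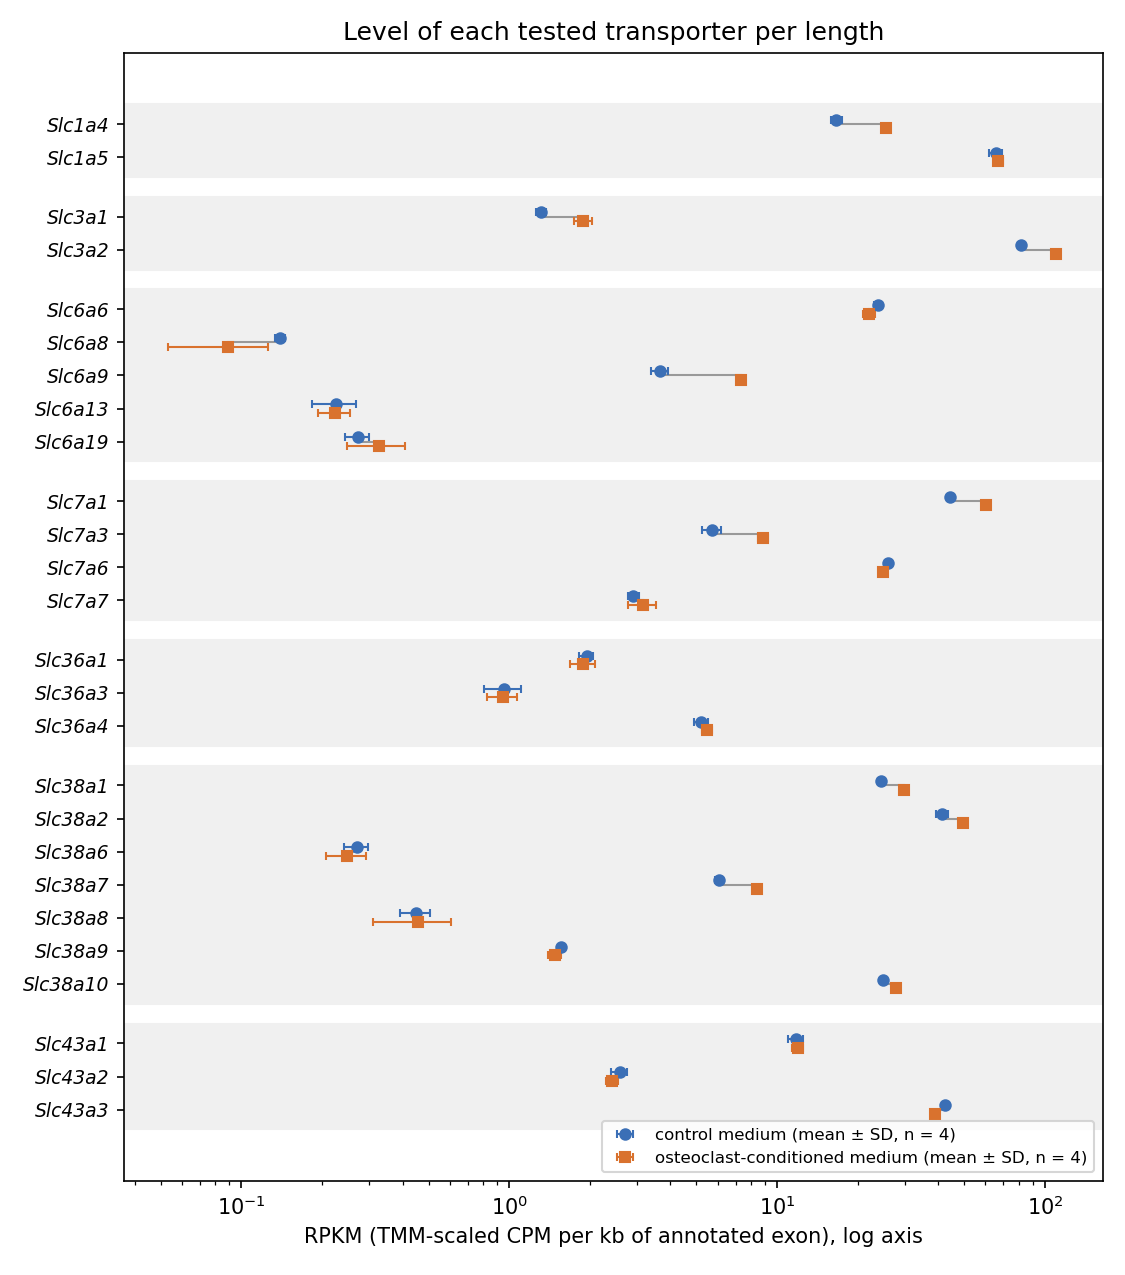
Mean RPKM ± SD (n = 4) of each tested transporter in control (blue circles) and osteoclast-conditioned (orange squares) medium, on a log axis, by family. Slc3a2, Slc1a5 and Slc7a1 have the highest values in both media, and Slc6a9 moves from 3.66 to 7.32.

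Carriers outside these families were followed with a list of 23 genes for amino acid or small peptide transport. The list covers the plasma membrane, lysosome, vesicles and mitochondrion. Of the 15 tested, 4 were called by edgeR, 3 lower and 1 higher, a share near the 30.5% of all tested genes, and the median log2 fold change was -0.05. The lower ones were the lysosomal histidine and peptide carrier Slc15a3 (-0.27, SE 0.06), the mitochondrial ornithine carrier Slc25a15 (-0.15, SE 0.05) and the mitochondrial carrier of basic amino acids Slc25a29 (-0.36, SE 0.14). The higher one was the mitochondrial glutamate carrier Slc25a18, at 2.06 ± 0.446 against 3.33 ± 0.385 CPM (log2 fold change 0.71, SE 0.16). Of its exon bases, 1.67% are shared with Atp6v1e1, which had 6328 counts in all against 386 for Slc25a18, so the Slc25a18 change is uncertain. Slc15a3 shares 28.1% of its exon bases with Tmem132a, and the calls of the other lower genes were not stable. Slc25a29 was not called under 13 of 19 alternatives, among them DESeq2, limma-voom, the replicate block, no filter and 7 of the 8 fits that left out 1 sample. Slc25a15 was not called under 6, among them DESeq2 and 3 fits that left out 1 sample. Slc17a6, Slc25a2, Slc25a13 and Slc32a1 were listed at 0 in all samples; the whole span of Slc25a2 lies inside other gene models, also at 0, so its 0 is uncertain.

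Of 6 proteins known to bind, stabilise or ubiquitinate these transporters, 4 were tested and 1 was called, a share near the 30.5% of all tested genes. The gene called was Arl6ip5, a binding partner that restrains Slc1a1, with a log2 change of -0.15 ± 0.04 (SE, adjusted p = 0.00332 by edgeR), while Slc1a1 itself had 3 to 10 counts per sample. The ubiquitin ligases Nedd4 and Nedd4l had log2 fold changes of 0.03 (SE 0.02) and 0.04 (SE 0.04), and Cd44, which stabilises Slc7a11 at the surface, of 0.00 (SE 0.03). Cltrn was at 0. Slc7a6os, named after its neighbour Slc7a6, had a log2 fold change of -0.16 (SE 0.05, adjusted p = 0.0190).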

How the data were processed

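The authors deposited 1 table of raw, unnormalized counts with Ensembl gene IDs as rows. STAR 2.7.5a, featureCounts 2.0.1 and mm10 are named in the submitters' processing notes; counting annotation, use of strand and treatment of overlapping genes are not given in the sources used here. Columns were matched to samples by the number in their header, and 0 were left over. Symbols, exon lengths and overlaps came from GENCODE M21 (GRCm38), which matched 21817 of 21859 IDs. Genes passing filterByExpr (10729) were scaled by TMM and tested with edgeR 4.0.16 (glmQLFit robust, glmQLFTest, R 4.3.3), with medium as the term, all 8 samples and Benjamini-Hochberg adjustment; each SE is |log2 fold change| over √F. Ratios used a pseudocount of 0.5 (scipy 1.17.1). The fitting code was tested on simulated data. Where replicates do not come from separate cultures, the p-values measure only the spread between these samples, which may be technical; the labels do not say.

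The transporters and lists were chosen with earlier results of these data known. Per-sample values are given for Slc7a1, Slc6a9, Slc3a2 and Slc7a11 and for called transporters without overlap between media, and also for Slc7a6, Slc7a7, Slc1a5, Slc6a6, Slc6a8 and Slc38a11, which were added after their values were seen; other tested transporters are named with their change, and the rest by counts. Alternatives were other scalings (RLE, upper quartile, total counts), filters, DESeq2 1.42.0, limma-voom (limma 3.58.1), no robust estimation, the replicate number as a block, stricter thresholds, and leaving out each sample. Some genes of the lists are not reported here.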

Additional observations from a re-analysis of the deposited data

Results flagged for a closer look

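For the 26 tested transporters, the 2 chain ratios and the 7 family sums, the highest and lowest sample of each medium were compared with the other 3 by the gap to the nearest as a share of the range. In 2 of 70 groups of 4 samples this exceeded Dixon's 95% critical value for 4 samples, where chance gives about 3.5. Slc6a9 was highest in osteoclast-conditioned replicate 4, at 39.5 CPM against 36.7 to 37.1 (ratio 0.836). Slc38a7 was highest in control replicate 4, at 26.3 CPM against 24.6 to 24.9 (ratio 0.864). Both genes were called whichever sample was left out.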

How the results depend on the processing

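Of the 12 called transporters, 11 were called under each of the 19 alternatives except the test against a 1.2-fold change; Slc6a6 was also lost under others. The 1.2-fold test called 6 (6 higher and 0 lower, with 0 lower at an unadjusted p under 0.05), namely Slc1a4, Slc3a2, Slc6a9, Slc7a1, Slc7a3 and Slc38a7, and it called 0 of the other carriers and 0 of the partners, of which 1 and 0 had an unadjusted p under 0.05. An adjusted p under 0.01 left 1 lower transporter and 2 other carriers, and DESeq2 also called 2 other carriers. Leaving out 1 sample gave 11 to 12 called transporters, 10 higher throughout and 1 to 2 lower (1 without control replicate 1 or 4 or conditioned replicate 2 or 3), and 2 to 4 other carriers (2 without control replicate 2 or 4 or conditioned replicate 2). None of the 14 tested transporters outside the 12 was called under any alternative. Without a filter 13 transporters were called, 11 higher, the added one being Slc38a11 (adjusted p = 0.0174), which rests on 8 counts. The labels number the replicates 1 to 4 in both media, but same-numbered samples did not deviate together (correlations -0.05 to 0.14); with the replicate block 12 transporters were called, 10 higher and 2 lower, and 3 other carriers.

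The ratios differed by -0.52 to -0.47 (Slc7a6) and -0.39 to -0.26 (Slc7a7) with 1 sample left out, and by -0.50 and -0.33 with the replicate block, where the smallest p these tests can give (0.0571 and 0.125) is above 0.05. Among genes not called, the log2 fold change of Slc36a3 was negative with total counts only (-0.015), upper quartile (-0.0026), the block (-0.0057) and DESeq2 (-0.0027), and that of Slc38a8 with total counts only (-0.013), upper quartile (-0.00079) and limma-voom (-0.040). With 1 sample left out, values ran from -0.095 to 0.089 for Slc36a3, -0.16 to 0.16 for Slc38a8, -0.084 to 0.079 for Slc6a13, -0.093 to 0.028 for Slc36a1, -0.0041 to 0.063 for Slc1a5 and -0.00033 to 0.075 for Slc43a1. When a mean of at least 50 counts was required, fewer genes were tested, and the medians were 0.45 in Slc6a, 0.26 in Slc38a and 0.14 over all families. Without a filter they were 0.015 in Slc1a, 0.032 in Slc7a and -0.0048 over all.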
